A study of Mus musculus with 6 samples.

Results

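The clustered histone genes are the members of the large Hist1, Hist2, Hist3 and Hist4 gene groups that encode the linker histone H1 and the core histones H2A, H2B, H3 and H4. They were chosen by symbol, as the genes of the deposited tables whose older mouse symbol begins with Hist1h, Hist2h, Hist3h or Hist4h, without the symbol that ends in -ps. The tables carry newer symbols, none of which begins this way (0 rows), so the older symbol was looked up for each gene identifier in GENCODE vM21. This gave 69 genes of 55421, which are 6 H1, 20 H2A, 18 H2B, 12 H3 and 13 H4 genes. By position in GRCm38, 56 lay on chromosome 13, 10 on chromosome 3, 2 on chromosome 11 and 1 on chromosome 6. The annotation lists 67 of them as protein coding and 2 as pseudogenes (H2ac14 and H2af-ps2).

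RNA was sequenced from the cerebral cortex of 6 wild-type C57BL/6J male mice, 3 of 6 months (mice 10, 11 and 17) and 3 of 24 months (mice 2, 4 and 5), all anaesthetised with isoflurane before the tissue was taken. Each mouse gave 1 library, made from 10 ng of total RNA with a low-input kit, and no treatment or transgene separated the ages. The question was which histone genes the adult cortex expresses and whether their mRNA levels differ with age. In bulk tissue, fewer cells of a type and less RNA per cell cannot be told apart.

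Most clustered histone genes are transcribed in S phase, when new chromatin is assembled. Their mRNAs usually end just after a short hairpin in place of a poly(A) tail, and the stem-loop binding protein Slbp recognises this hairpin. Some members also give polyadenylated mRNAs in cells that have left the cell cycle, and the cortex consists mainly of such cells.

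The hairpin is shown because it separates the annotated 3′ ends of the members. A perfect 6-base stem with a 4-base loop that matched the histone stem-loop consensus was found in the annotated transcripts of 46 of the 69 genes and in 14 of 21884 other protein-coding genes (0.0640%). In 26 of the 46 the hairpin was the same 16 bases. Below are the hairpins of the 4 abundant single-exon members that hold one and of H3c8, whose transcript ends close behind it, each with 5 bases on either side, 5′ to 3′ on the strand of the gene and with the hairpin in capitals.
H2aw hairpin, chr11:58955167-58955192 (+): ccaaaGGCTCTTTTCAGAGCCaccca
H2bu2 hairpin, chr11:58949344-58949369 (+): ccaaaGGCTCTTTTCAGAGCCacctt
H1f2 hairpin, chr13:23739507-23739532 (+): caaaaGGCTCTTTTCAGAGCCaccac
H4c14 hairpin, chr3:96262934-96262959 (-): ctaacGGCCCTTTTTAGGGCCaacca
H3c8 hairpin, chr13:23535884-23535909 (+): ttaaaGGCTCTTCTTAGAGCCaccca

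The annotated transcript of H2aw went on for 1643 bases after the hairpin, that of H4c14 for 1257, that of H1f2 for 840 and that of H2bu2 for 169, whereas H3c8 ended after 47 bases. A poly(A) signal (AATAAA or ATTAAA, on the strand of the gene) lay within 50 bases of the annotated end in 17 of the 69 genes. It is shown for the single-exon members above 1 CPM that carry it (H2bc6 has one as well), with the signal in capitals.
H2aw poly(A) signal, chr11:58956792-58956817 (+): tgcccAATAAAataagagtacgtgta
H2bu2 poly(A) signal, chr11:58949502-58949527 (+): gtattAATAAAtttggttcaattttg
H1f2 poly(A) signal, chr13:23740337-23740362 (+): cttctAATAAAaagcgtttagttttc
H4c14 poly(A) signal, chr3:96261694-96261719 (-): cataaAATAAAatcttaaaaacaaca
H2bc21 poly(A) signal, chr3:96223712-96223737 (+): ttattAATAAAgttaccgattagttt

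A few members held nearly all of the signal. Of the 69 genes, 14 had no count in any library, 27 had 1 to 9 counts over the 6 libraries and 28 had at least 10, the minimum for the test. A mean of at least 1 TPM (the deposited level, scaled by gene length and library) was reached by 13, and 7 had a mean above 1 CPM (counts relative to the library total, scaled by the trimmed mean of M-values, TMM). The libraries held 29495379 to 36494240 counts in all, of which the 69 genes took 0.00665% to 0.00816%. The H2B gene H2bc4 had the highest mean TPM (72.2), and it alone made up 36.8% of the summed mean TPM of the members. After it came the H2B gene H2bu2 (36.4), the H2A gene H2aw (32.5), the linker histone gene H1f2 (17.7), the H2B genes H2bc21 (10.9) and H2bc6 (4.04), and the H4 gene H4c14 (3.12). The spread of each gene over the mice left the order of H2bu2 and H2aw open, since their TPM values overlapped at 6 months.

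**Figure D1:**
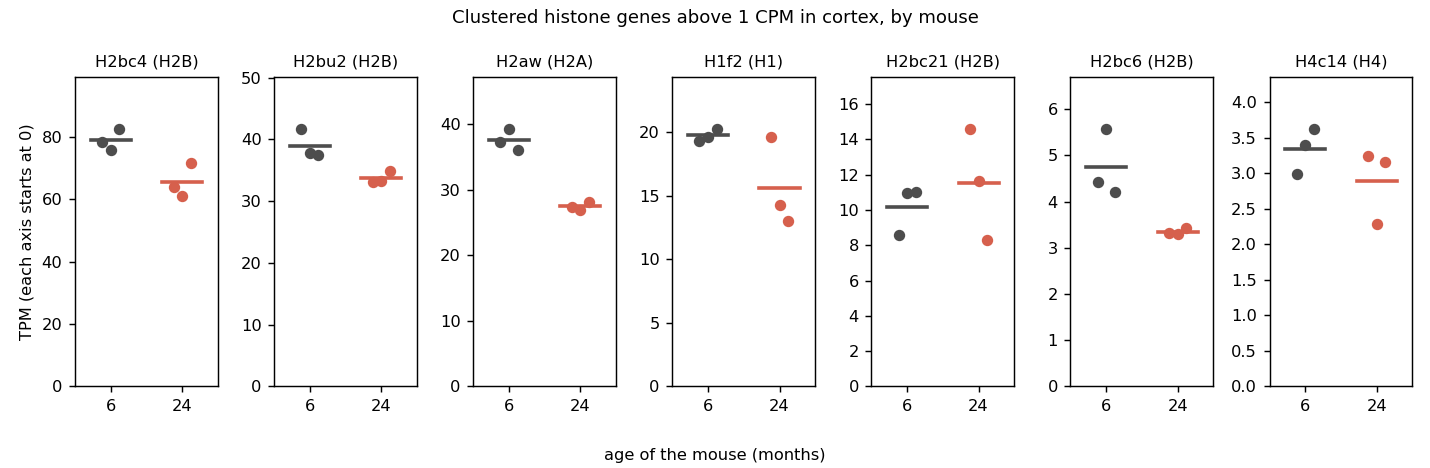
TPM of the 7 clustered histone genes above 1 CPM, by age in months, with 1 point for each mouse and a bar at the mean of 3 mice; each vertical axis starts at 0 and has its own scale. The 24-month points of H2bc4, H2bu2, H2aw and H2bc6 lie below all 6-month points, and those of H1f2, H2bc21 and H4c14 overlap them.

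The levels of the members differed between classes of annotated 3′ end. None of the 21 members whose transcript ends within 100 bases of the hairpin, without a poly(A) signal there, reached 1 TPM, and their median was 0.0969 TPM. Of the 14 members with both a hairpin and a poly(A) signal at the end, 7 reached 1 TPM and 5 reached 3 TPM. Of the 11 members whose transcript runs more than 100 bases past the hairpin without such a signal, 4 reached 1 TPM, with the highest at 1.89 TPM (H3c15). The remaining 2 genes above 1 TPM have no hairpin in their annotated transcript, which ends at a poly(A) signal for H2bc21 and has a second exon for H2bc4 (chr13:23684199-23692908). H2bc21 is 1 of 3 members with such a signal and no hairpin, and the other 2 had no count. H2bc4 is the only 1 of 20 members with neither feature that reached 1 TPM. The median of these 20 was 0.0971 TPM, close to that of the members that end behind the hairpin. The classes also differed in length and in sequence of their own, taken up next: the median member had 485 exonic bases and 41.2% unique words of read length where the transcript ends behind the hairpin, 843 bases and 80.8% with hairpin and signal, and 1249 bases and 82.4% with a longer end. The part of each in the levels was not tested. The kit primes on poly(A), so mRNAs that end at the hairpin are captured poorly, and a low value here does not show that a gene was not transcribed.

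Sequence shared between copies also moved with the counts. The methods name counting by fraction of reads that map to several places, together with a mapping quality of at least 15. All deposited counts were whole numbers, so reads mapping equally well to several copies appear to have dropped out. Cut into words of 69 bases, the length of a trimmed read, 8 members had under 10% of words that no other annotated gene holds, apart from genes that overlap them. Of these 8, 7 were at 0 counts, and the other had 2 counts in all. Of the 14 members with at least 90% of such words, 12 were tested, and their median total was 82.5 counts. For H2ac19, 0% of the words were its own, so that its count of 0 says nothing of its mRNA level. Of the 14 genes at 0, H2ac18, H2ac19, H2bc18, H3c13 and H3c14 lie wholly within exons of other annotated genes on either strand. Per the methods, reads went to the gene of largest overlap, with no option named that counts a read for several genes. A read equally within both genes may then be counted for neither. H2bc18 was at 0 although 100% of its words were its own apart from the genes that overlap it. All 381 of its exonic bases lie in exons of Gm20628 on the other strand.

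**Figure D2:**
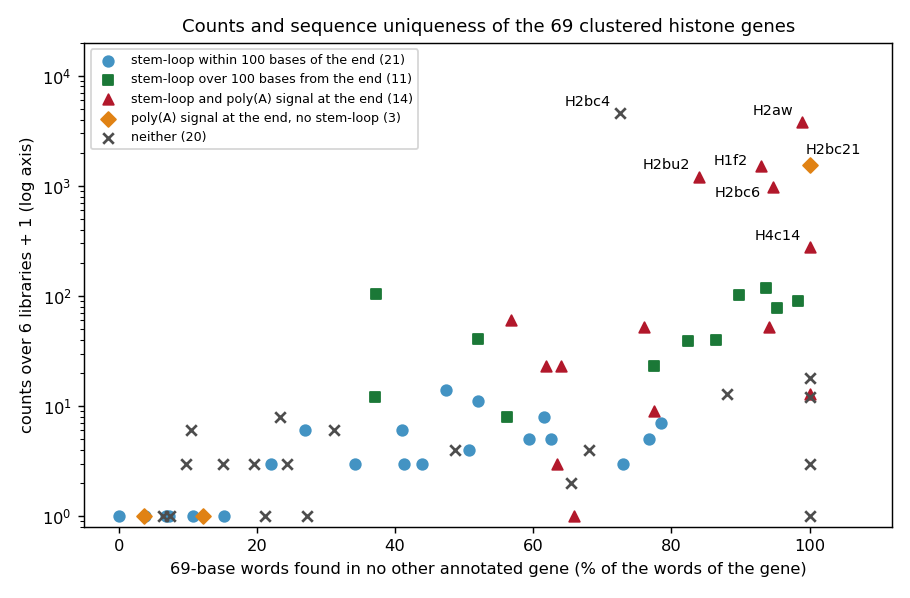
Total counts over the 6 libraries plus 1 (log axis) against the percent of 69-base words of the gene that occur in no other annotated gene, for the 69 members, with symbols by annotated 3′ end. The 7 labelled genes above 200 counts all have 72.5% or more of words of their own, and the members below 10% have 0 to 2 counts.

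The H2A and H2B genes include 13 head-to-head pairs that share the stretch between their starts, and their partners were counted very unequally in the case of the abundant H2B genes. H2bc4 starts 250 bases from H2ac6 and H2bc21 starts 238 bases from H2ac20. H2bc4 had 45.1 to 286 times the TPM of H2ac6 over the 6 libraries, with 4552 counts in all against 102. H2bc21 had 1545 counts and H2ac20 had 4. Among all 13 pairs the H2B gene had more counts in 8, the H2A gene in 2, and 3 were equal. Outside the pairs of H2bc4 and H2bc21 no gene had more than 40 counts. Partners also differ in unique words, in both directions: 7.39% for H2ac14 and 78.5% for H2bc14, but 68.0% for H2ac15 and 23.3% for H2bc15. The annotated transcript of H2ac20 ends 57 bases after its hairpin, and that of H2ac6 ends 2010 bases after it. The part of uniqueness and of capture by poly(A) in the tally was not tested. No H2A partner reached 1 TPM, and 10 pairs had both partners below it. The 2 shared stretches are printed in full on the strand of the H2A gene, from the RefSeq promoter windows (GRCm38.p6), with the octamer ATTTGCAT, here in its other orientation, in capitals.
H2ac6/H2bc4, chr13:23683949-23684198 (-): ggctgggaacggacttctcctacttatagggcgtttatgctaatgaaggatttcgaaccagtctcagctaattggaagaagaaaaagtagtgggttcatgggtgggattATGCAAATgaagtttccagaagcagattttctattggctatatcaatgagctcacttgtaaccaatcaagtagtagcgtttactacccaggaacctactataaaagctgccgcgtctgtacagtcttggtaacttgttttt
H2ac20/H2bc21, chr3:96220881-96221118 (-): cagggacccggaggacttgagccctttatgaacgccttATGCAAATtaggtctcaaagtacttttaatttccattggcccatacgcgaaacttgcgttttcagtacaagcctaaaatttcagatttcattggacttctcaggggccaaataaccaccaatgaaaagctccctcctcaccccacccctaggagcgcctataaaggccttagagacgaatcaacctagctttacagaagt

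Each stretch held 1 octamer, the element bound by POU domain factors such as Pou2f1. On either strand of the RefSeq promoter window (250 bases before the start and 50 after it), the octamer was found in 14 of the 61 members with a RefSeq promoter entry, 7 of 18 H2A and 7 of 15 H2B genes, and in none of the 6 H1, 10 H3 and 12 H4 genes. Over the promoters of all 27025 genes the share was 1.97%. CCAAT was found in 52 of the 61 members (85.2%), but in 3 of 12 H4 genes, against 41.1% of all genes, and TATAAA in 35 of the 61 (57.4%) against 15.7%. None of the 3 motifs contains another, and these are matches of letters, not measured binding. The windows of head-to-head partners overlap, so 1 motif between their starts can be counted for both genes. The shares of the members are therefore not shares of independent promoters. H2bc4 and H2bc21 have no RefSeq promoter entry and are not among the 15 H2B genes.

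**Figure D3:**
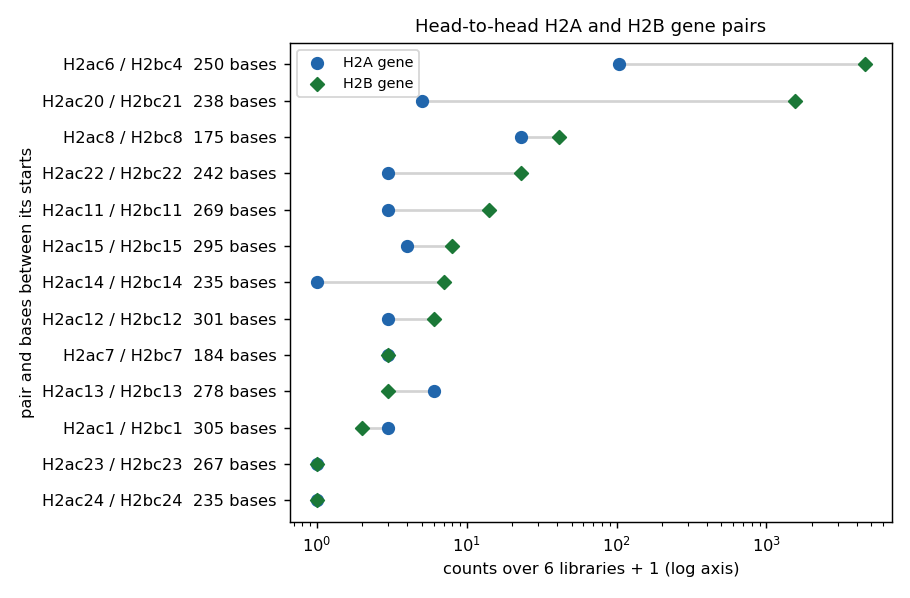
Total counts over the 6 libraries plus 1 (log axis) of the H2A gene (circle) and the H2B gene (diamond) of the 13 head-to-head pairs, with the bases between their starts. H2bc4 and H2bc21 stand at 4552 and 1545 counts beside partners with 102 and 4 counts, and the other pairs stay at 40 counts or fewer.

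Between the ages, the change was tested in all 32905 genes with at least 10 counts by edgeR's quasi-likelihood test, with Benjamini-Hochberg adjustment over all of them. At 1% FDR (false discovery rate), the level the study used, 0 genes passed (0%), members included. At an unadjusted p under 0.05, 8 of the 28 tested members passed, 6 lower (13.1% of all genes tested) and 2 higher (17.6%) at 24 months. At 10% FDR, used as a working level, 3 members passed as lower (8.33% of all genes tested) and 2 as higher (10.0%). Of these 2, H1f6 met the count minimum only through its 24-month counts. By other tests at 1% FDR, H2aw passed as lower with the likelihood ratio test of edgeR (0.766% of genes) and with DESeq2 (0.423%), while H1f3 and H1f6 passed as higher with the likelihood ratio test (4.41%) and no member did with DESeq2 (0.412%).

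The members that fell at 10% FDR were the abundant H2aw, H2bc6 and H2bc4. For H2aw the TPM values were 37.3, 39.3 and 36.1 in 6-month mice 10, 11 and 17, and 27.4, 27.0 and 28.1 in 24-month mice 2, 4 and 5. The ages did not overlap, and the fitted log2 fold change was -0.56 ± 0.10 (SE, n = 3 mice per age), 1.48-fold lower with an adjusted p of 0.0518 by the edgeR quasi-likelihood test. H2aw (chr11:58954685-58956830) encodes a core histone H2A, and 708 of its 2146 exonic bases also lie in exons of Trim17 on the same strand, 138 of them in Gm44313 on the other strand as well.

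H2bc6, an H2B gene, had TPM values of 4.44, 5.58 and 4.21 at 6 months and of 3.33, 3.29 and 3.42 at 24 months. All 3 older mice lay below the younger ones, with a log2 fold change of -0.62 ± 0.16 (SE) and an edgeR adjusted p of 0.0586. Of its 4446 exonic bases, 496 also lie in H1f4 on the same strand, where a read within both genes cannot be told apart.

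H2bc4, the most abundant member, had TPM values of 78.3, 75.6 and 82.5 at 6 months and of 64.0, 61.1 and 71.7 at 24 months. The ages did not overlap, and the log2 fold change was -0.38 ± 0.11 (SE, 1.30-fold lower), with an edgeR adjusted p of 0.0669. It shares 237 words of 69 bases with H2bc8, a copy with 40 counts in all.

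The scaling bears on the size of these 3 changes. All tested genes had a median log2 fold change of 0.15, and the 15761 genes above 1 CPM had one of -0.14, which moved to 0.05 when libraries were scaled by their totals alone. Relative to the median gene above 1 CPM, the log2 fold change was -0.42 for H2aw, -0.47 for H2bc6 and -0.24 for H2bc4 under either scaling. A change of scaling moves all genes by about the same amount, so this agreement is set by arithmetic and is no separate support. With library totals the edgeR adjusted p was 0.0714 for H2aw, 0.126 for H2bc6 and 0.264 for H2bc4. Among genes above 1 CPM, 17.3% passed 10% FDR as lower and 2.43% as higher, beside 3 and 0 of the 7 members, and 26.9% and 4.23% had an unadjusted p under 0.05 in these directions, beside 5 and 0 members. Without mouse 10, 11, 2 or 4, none of the tested members passed 10% FDR in either direction, but in these fits 0, 1, 176 and 0 genes passed in the whole data set. The log2 fold change of H2aw was -0.50 to -0.57 there, with an adjusted p of 0.150, 0.156, 0.101 and 0.166. Without mouse 17 (2476 genes called), H2aw, H2bc6 and H1f3 passed, and without mouse 5 (7998 genes called) all 5 did.

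The next members of each type did not pass 10% FDR. H2bu2 had TPM values of 41.7, 37.7 and 37.5 at 6 months against 33.1, 33.3 and 34.8 at 24 months, without overlap, and a log2 fold change of -0.32 ± 0.13 (SE; edgeR adjusted p = 0.139). H1f2, one of the somatic linker histone genes, had TPM values of 19.3, 19.6 and 20.3 against 19.6, 14.2 and 13.0. Mouse 2 lay within the range of the younger mice, and the other older mice lay below it (log2 fold change -0.45 ± 0.17, edgeR adjusted p = 0.112; -0.64 and 0.109 without mouse 2).

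H4c14 had TPM values of 2.99, 3.40 and 3.63 at 6 months and of 3.24, 2.29 and 3.16 at 24 months, which overlapped (-0.32 ± 0.22, edgeR adjusted p = 0.344). H2bc21 was spread most widely among the older mice, with 14.6, 11.7 and 8.32 TPM against 8.57, 11.0 and 11.0 TPM at 6 months. Its log2 fold change was 0.07 ± 0.20 (edgeR adjusted p = 0.847). The linker histone gene H1f4 had 19, 28 and 24 counts at 6 months and 11, 15 and 20 counts at 24 months (log2 fold change -0.66 ± 0.30, edgeR adjusted p = 0.171).

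Of the remaining genes with the highest mean TPM of their type, all had few counts, and their ages overlapped. The counts of the H2A gene H2ac6 were 6, 24 and 14 at 6 months and 30, 14 and 14 at 24 months. H3c15 had 4, 14 and 25 counts against 37, 15 and 9, and H3c8 had 2, 1 and 4 counts against 1 in each older mouse. H4c8 had 11, 14 and 5 counts against 11, 10 and 8. No difference between the ages was detected in these genes, where the log2 fold change carried a SE of 0.43 to 0.84.

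On the scale of TMM CPM, 8 of the 28 tested members had lower values in every 24-month mouse than in any 6-month mouse (16.3% of all genes tested, and 32.5% of genes above 1 CPM, where 6 of the 7 members did). Higher values in every 24-month mouse were found in 2 members (20.0% of all genes tested), neither of them above 1 CPM (5.32% of such genes). In deposited TPM, which uses no TMM factor, the lower ones were H2aw, H2bc4, H2bc6 and H2bu2 (8.65% of all genes tested and 17.3% of those above 1 CPM), and the higher ones were again H1f3 and H1f6 (25.8%). The median log2 fold change of the 28 members was -0.20 and that of the 7 above 1 CPM was -0.38. Fitted values were negative for 15 members and positive for 13.

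**Figure D4:**
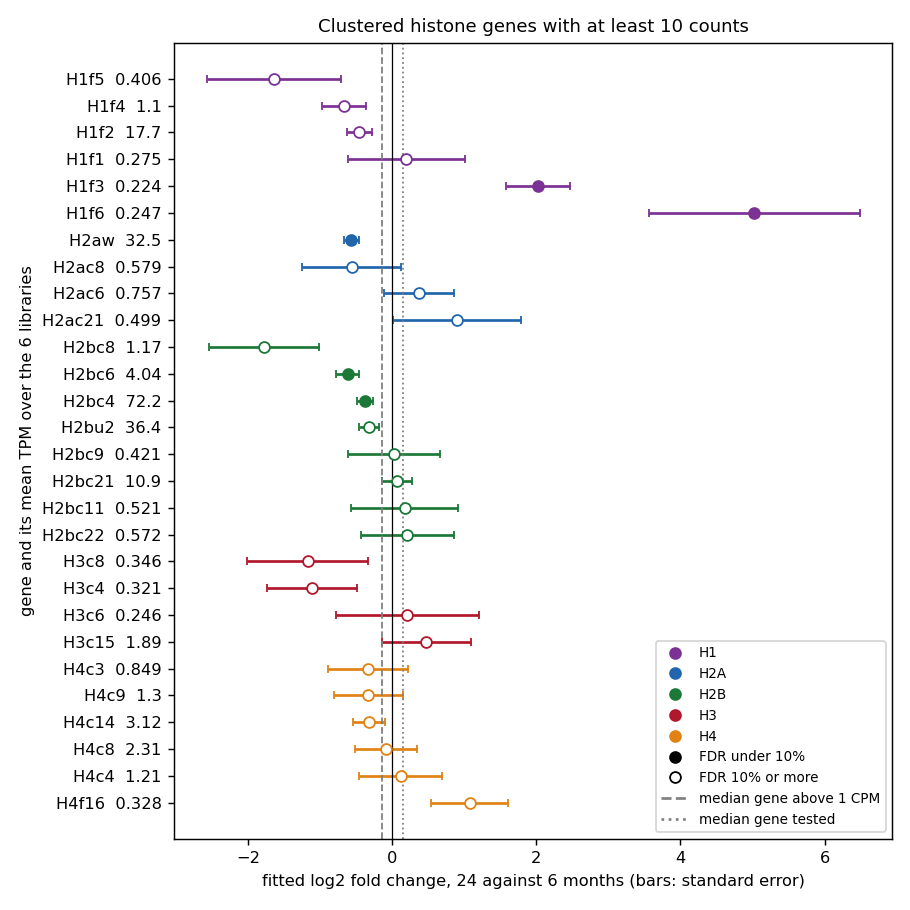
Fitted log2 fold change (24 against 6 months) of the 28 tested members by histone type, with the standard error as bars, the mean TPM beside each name, and filled symbols at an FDR under 10%. H2aw, H2bc6 and H2bc4 are filled to the left of the median gene above 1 CPM (-0.14, dashed), and the filled points to the right are H1f3 and H1f6, of 0.224 and 0.247 mean TPM; the point of H1f6, at 0 counts in each younger mouse, depends on the prior count.

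Summed by type, the H2A and H2B genes were lower at 24 months in every mouse. The H2A sum was 23.7 ± 1.17 CPM (SD, n = 3) at 6 months and 16.4 ± 0.405 CPM at 24 months, and H2aw made up 91.5% of the mean H2A TPM. The H2B sum was 47.1 ± 1.10 and 37.8 ± 1.37 CPM. These sums follow their leading genes: without H2aw the H2A log2 ratio went from -0.53 to 0.25, and without H2bc4 that of H2B went from -0.31 to -0.24. The other types overlapped between the ages, with 9.83 ± 0.281 and 7.79 ± 1.58 CPM for H1, 0.825 ± 0.318 and 0.909 ± 0.422 CPM for H3, and 2.89 ± 0.432 and 2.85 ± 0.316 CPM for H4. No test was run on the sums.

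The members that passed 10% FDR as higher were 2 rarely counted linker histone genes. H1f3 had 3, 7 and 7 counts at 6 months and 32, 26 and 14 counts at 24 months, a log2 fold change of 2.02 ± 0.45 (SE, edgeR adjusted p = 0.0526). H1f6, the testis-specific H1t, had no count in any 6-month mouse and 4, 7 and 1 counts at 24 months (edgeR adjusted p = 0.0765). Its 12 counts all came from 24-month mice, so it met the minimum of 10 counts only through the age where it is high. Its adjusted p is therefore no support for a rise. Against a floor of 3 counts per library at 6 months, the mean CPM of H1f6 at 24 months was at least 1.29-fold higher. The annotated exon of H1f3 is long (7425 bases), and the counts do not show where in it the reads lie.

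Counts on receptor genes of the nose were also higher in the older mice. The paper ascribes its up-regulated genes mainly to sensory perception. What the receptor counts come from was not tested. The 1477 olfactory and vomeronasal receptor genes together had 0.0207 to 0.0236 CPM (by library total) per kb of exon at 6 months and 0.0945, 0.0768 and 0.0552 in mice 2, 4 and 5. H1f3 had 0.0121, 0.0258 and 0.0271 on this scale at 6 months and 0.146, 0.108 and 0.0575 at 24 months, 1.04 to 1.55 times the receptor value of the same library at 24 months. H1f6 had 0.149, 0.237 and 0.0334 at 24 months. With the receptor density subtracted from every gene, H1f3 had a log2 fold change of 3.23 with an edgeR adjusted p of 0.30, and too few counts of H1f6 were left for the test. The subtraction left H1f3 almost no counts at 6 months, and it then met the count minimum only through the 24-month mice. The fold change of H1f3 in this fit is therefore no support for a larger rise. None of the members passed 10% FDR in that fit, in which 28 of 25507 genes did.

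The 41 members with fewer than 10 counts together lay at 0.0118 to 0.0180 per kb at 6 months and 0.0241 to 0.0306 at 24 months, below the receptor density of their own library in all 6 mice. The 21 tested members below 1 CPM together lay above it in each library, at 0.111 to 0.177 per kb at 6 months and 0.143 to 0.225 at 24 months. Both groups were formed by their counts in these same libraries. Their place below or above the receptor density is partly set by that choice. The number of members with at least 1 count was 34 to 37 in the younger and 40 to 45 in the older mice, and over all 55421 genes it was 33974 to 35651 and 40208 to 43561. Whether the source of the receptor counts bears on the values of the rarely counted members was not tested gene by gene.

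**Figure D5:**
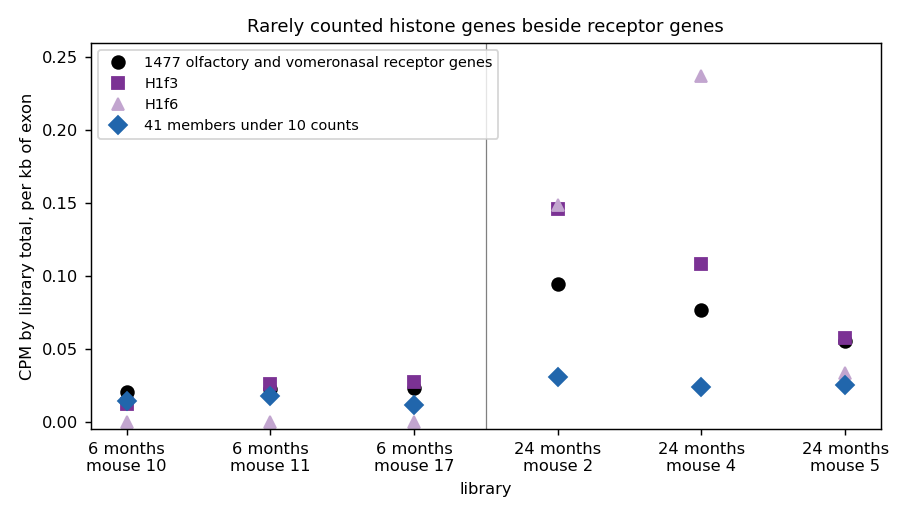
CPM by library total per kb of exon in each library for the 1477 receptor genes together, H1f3, H1f6 and the 41 members under 10 counts together. The receptor genes lie at 0.0552 to 0.0945 at 24 months against at most 0.0236 at 6 months. H1f3 lies at 0.584 to 1.55 times their value, and the 41 members, grouped by their few counts, lie below them.

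Genes that make, process or carry histones were read in the same fit from lists. Of 17 genes for histone transcription and mRNA processing, 9 passed 10% FDR as lower and 0 as higher at 24 months (median log2 fold change -0.29). They included the cap-binding subunits Ncbp1 (-0.41 ± 0.09, SE; edgeR adjusted p = 0.0533) and Ncbp2 (-0.36 ± 0.09), the exonuclease Eri1 that binds the hairpin (-0.43 ± 0.11), Casp8ap2 (-0.39 ± 0.11), which is needed for processing, and the cleavage factor Cstf2 (-0.52 ± 0.14). Npat, the activator of the clusters, and Slbp were also among the 9.

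Of 20 histone chaperone genes, 6 passed as lower and 0 as higher (median log2 fold change -0.24), led by the FACT subunit Supt16 (-0.52 ± 0.12; edgeR adjusted p = 0.0552), Rbbp4 (-0.32 ± 0.10), Nap1l1 (-0.29 ± 0.09), Rbbp7 (-0.29 ± 0.09) and Ssrp1 (-0.25 ± 0.08). Of 11 replacement histone genes, many of which give mRNAs outside S phase, Macroh2a2 (-0.37 ± 0.12) and H2az1 (-0.30 ± 0.10, edgeR adjusted p = 0.0796) passed as lower and 0 passed as higher. The shares of genes above 1 CPM that passed in each direction, 17.3% lower and 2.43% higher, apply to these lists as well. With library totals 0 genes of these 3 lists passed as lower.

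Of 24 S phase and proliferation genes, Top2a (1.11 ± 0.28; edgeR adjusted p = 0.0575), Tk1 (1.01 ± 0.30) and Mki67 (0.88 ± 0.29) passed as higher, each with 11 to 46 counts per library, and Ccne1 (-0.47 ± 0.12), Mcm6 (-0.49 ± 0.13) and Mcm4 (-0.41 ± 0.13) passed as lower. Over all genes tested, 10.0% passed as higher and 8.33% as lower, and these 3 and 3 of 24 lie near those shares. In the fits without mouse 10, 11, 2 or 4, which called 0, 1, 176 and 0 of all genes, 0 genes of the 4 lists passed 10% FDR. Without mouse 17 (2476 of all genes), 5 processing genes, 2 chaperone genes and 1 S phase gene passed as lower. Without mouse 5 (7998 of all genes), 9 processing, 6 chaperone and 4 S phase genes passed as lower and 1 processing and 3 S phase genes as higher. Of the replacement histones, 0 passed in any of the 6 fits. Whether the source of the receptor counts bears on the 3 rarely counted genes that rose was not tested.

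Markers of the labelled tissue were present, and none of the 51 marker genes read was at 0 in all libraries. The 6 neuron markers summed to 7938 to 9278 CPM at 6 months and to 5856 to 7671 CPM at 24 months, and Syt1 passed 10% FDR as lower. The 4 oligodendrocyte markers ranged from 1051 to 3542 CPM among the older mice. The 6 lymphocyte markers summed to 0.782 to 1.62 CPM and to 2.59 to 4.16 CPM, with Ms4a1 and Jchain higher at 10% FDR. Their part in the histone results was not tested.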

How the data were processed

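Per the labels and methods, the authors trimmed 75-base single-end reads (Trim Galore 0.6.4), mapped them with STAR 2.7.3a to GRCm38 (GENCODE vM23), counted exonic reads with featureCounts (Subread 2.0.0, mapping quality of at least 15, without strand) and deposited counts and TPM values by gene in separate files for each mouse. The options named also count reads that map to several places by fraction, but all deposited counts were whole numbers.

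Older symbols were found by identifier in GENCODE vM21, and all 69 identifiers had the same version there. The ages were compared by the quasi-likelihood test of edgeR 4.0.16 under R 4.3.3, with TMM factors, a minimum of 10 counts over the 6 libraries and no covariate. Each SE was back-calculated, as the absolute log2 fold change divided by the square root of the F statistic of the quasi-likelihood test. DESeq2 1.42.0 was an alternative. On simulated counts of 32905 genes for this comparison, 95.5% of 200 genes changed by 1 on the log2 scale passed 10% FDR. The changed genes were drawn from well-counted genes only, at a fixed dispersion. This share therefore does not apply to rarely counted members or to smaller changes. CPM used TMM factors of 0.921 to 0.946 at 6 months and 1.04 to 1.10 at 24 months. Densities per kb used library totals.

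Totals of 29495379 to 36494240 counts leave most members with a few counts. Folds against libraries at 0 used a floor of 3 counts. Sequence features came from GENCODE vM21 transcripts and RefSeq promoters (61 of 69 members matched), computed with Python 3.11.15 and pandas 2.3.3.

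Genes were named by rule: the 2 members of highest mean TPM in each type, up to 5 members with the largest change in each direction at 10% FDR, and up to 5 called genes by p in each list. H2bc21, H2ac20 and other members shown for sequence features, and Npat, Slbp and marker genes, were named after their values were seen. The members and lists were chosen with earlier results of these data known, and are no independent support.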

Additional observations from a re-analysis of the deposited data

How the results depend on the processing

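Members past 10% FDR, 2 higher and 3 lower at 24 months, ranged from 0 to 2 higher and from 0 to 3 lower when 1 mouse was left out. DESeq2 gave 1 higher (3048 of all genes called), filterByExpr gave 1 higher and 1 lower (1538), and library totals gave 1 lower (4439). The likelihood ratio test gave 4 lower (7498), and subtraction of the receptor density gave 0 in both directions (28). The fitted directions of H2aw, H2bc6, H2bc4 and H1f3 were the same in every fit that tested them. After subtraction of the receptor density, H1f3 met the count minimum only through its 24-month counts. The direction of H1f6 was set in advance by its 0 counts in each younger mouse, and does not bear on stability. Small fitted changes turned: H4c8 was at 0.10 with library totals and 0.024 with filterByExpr, and without 1 mouse H4c8 ranged from -0.40 to 0.22, H2ac6 from -0.11 to 0.92 and H3c15 from -0.31 to 1.15. The H2A log2 ratio of summed CPM was -0.34 with library totals, -0.38 in TPM, -0.42 after subtraction of the receptor density and 0.25 without H2aw. That of H2B was -0.12, -0.22, -0.19 and -0.24 (without H2bc4). Library totals gave 0.17 for H4, which was 0.26 without H4c14, and H1 was 0.37 without H1f2. With library totals, 0 replacement histone, processing, chaperone and S phase genes passed as lower and 1 processing gene as higher, and DESeq2 size factors gave 2 chaperone genes as lower. Without 1 mouse, 0 replacement histones, 0 to 9 processing genes, 0 to 6 chaperones and 0 to 4 S phase genes passed as lower, with 0 to 1 processing and 0 to 3 S phase genes as higher. The cause of these shifts was not tested.

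No paired analysis was possible because the mouse numbers are not shared between the ages. The sources used here name no batch, so age and any batch cannot be told apart. Reads common to several copies appear not to be counted, and mRNAs without poly(A) are poorly captured. With 3 mice per age and few counts, most members could not be compared. Uniqueness was computed against annotated transcripts, not the genome.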

Other observations

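Mouse 2 of the 24-month mice had the highest value of the 6 mice for several members of low or middle level: 14.6 TPM for H2bc21, 37 counts for H3c15 and 30 counts for H2ac6. The same library had the lowest total (29495379 counts), the highest receptor density (0.0945 CPM by library total per kb) and the lowest sum of oligodendrocyte markers (1051 CPM, against 2044 to 3542 CPM in the other 5 mice). The part of these in the 3 members was not tested.

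Of the 11 replacement histone genes, 6 had a higher mean TPM than H2bc4, the most abundant clustered gene (72.2 TPM), and 5 had a lower one, from 1.84 (Cenpa) to 35.8 TPM (Macroh2a2). H3f3b, an H3.3 gene, had a mean of 435 TPM and H1f0, the linker histone of resting cells, 433 TPM. Their log2 fold changes were 0.03 ± 0.08 and 0.03 ± 0.09 (SE), with edgeR adjusted p-values of 0.818 and 0.850.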
